A study of Mus musculus with 6 samples.

Results

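The genes described here encode the classical axon guidance ligands and receptors: ephrins and their Eph receptors, semaphorins with plexins and neuropilins, Slits with Robo receptors, and netrins with Unc5 receptors. The families were chosen with earlier results of these data known, and their rows were then taken by gene symbol alone. Every row of the deposited count table whose symbol belongs to one of these families was used. This gave 69 rows of 22740, which carried 68 symbols because Efna5 had 2 rows, 1 of them without a count in any library. RNA was sequenced from B16 cells, a mouse melanoma line named B16-F10 in the series text and labelled BRAFV600E-negative, after 3 days with 1 uM CX-5461 or with the vehicle DMSO (3 samples each). CX-5461 is a small molecule known to inhibit transcription by RNA polymerase I and to bind G-quadruplex DNA. All samples came from this 1 line, and nothing in the labels says whether replicates were separate cultures, so p-values measure the spread between these samples, which may be technical.

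Guidance molecules were named for steering growing axons, and they also act on neural crest cells, the embryonic source of melanocytes, and on tumour cells. Ephrins bind Eph receptor tyrosine kinases on neighbouring cells, and both partners can signal. Semaphorins bind plexins, and most secreted semaphorins need a neuropilin as co-receptor. Slits bind Robo receptors and mostly repel, and netrins attract through Dcc or repel through Unc5 receptors. In bulk RNA, fewer cells that express a gene and less of its RNA per cell cannot be told apart.

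The libraries held 17877481 to 22908309 counts with CX-5461 and 17573990 to 20198979 with DMSO. CX-5461 replicate 2 differed most from the replicates of its group. It stood at 9.005 and 7.36 chi-square units per gene compared against replicates 1 and 3, which differed from each other by 5.42. The DMSO replicates differed from each other by less, at 1.56, 2.01 and 2.52. The 7 melanocytic markers summed to 28243 to 30545 CPM with CX-5461 and 22070 to 22920 CPM with DMSO. The 5 neuronal markers summed to at most 0.657 CPM in any library, and the defining neuronal genes Snap25 and Stmn2 were at 0 throughout. Of the endothelial markers Cdh5 was at 0, and their sum stayed at or below 0.338 CPM. Of 4 immune markers Cd3e and Itgam were at 0, and the sum ran from 3.29 to 5.18 CPM with CX-5461 and from 0.328 to 1.45 CPM with DMSO, nearly all of it Lyz2. Of 4 epithelial markers Krt5 was at 0 (summed 2.30 to 2.70 CPM with CX-5461 and 0.869 to 1.67 CPM with DMSO). The 4 fibroblast markers summed to 7.13 to 7.97 CPM with CX-5461 and to 9.71 to 14.3 CPM with DMSO. The part of these marker shifts in the results below was not tested.

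After CX-5461 guidance genes were more often higher than lower. Among receptors Plxna4, Robo2, Epha3, Ephb2, Unc5c and Plxnd1 rose and Unc5b, Ephb4 and Plxna3 fell. Among ligands Efnb2, Ntn1, Efna5 and Sema7a rose and Sema6c, Efna1 and Sema3g fell. Of these, Plxna4, Robo2 and Ntn1 had enough counts for the test in the CX-5461 libraries alone, which favours a call of higher. Of 69 rows, 55 had enough counts for the test. Among these 31 rose and 10 fell, and 14 missed the threshold (edgeR's quasi-likelihood test, adjusted p below 0.05 over all 12198 genes tested). Of all tested genes 37.2% were called higher and 36.5% lower, 73.7% in all. The median log2 change of the tested guidance genes was 0.58, beside -0.005 over all tested genes. At least 2-fold, 20 guidance genes rose and 4 fell, where 11.7% and 4.16% of all tested genes did so. The groups did not overlap for 42 of the 55, a share close to the background of 76.2%. Of the 26 tested receptors and co-receptors 18 rose and 3 fell, with a median of 1.18, and of the 29 tested ligands 13 rose and 7 fell, with a median of 0.30. The receptor genes had a longer median span than the ligand genes, and values with span offset are given below. Whether receptors and ligands differed was not tested.

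Some genes entered the test through the CX-5461 libraries alone. Efna2, Epha10, Ntn1, Plxna4, Robo2, Robo3, Slit1 and Unc5a reached the count minimum in every CX-5461 library but not in every DMSO library, and no guidance gene did so in the DMSO libraries alone. Of all 12198 tested genes 411 did so in the CX-5461 libraries alone and 176 in the DMSO libraries alone. A gene that enters through the CX-5461 libraries alone is more likely to be called higher, so the counts above include genes favoured by the filter. A further 2 tested guidance genes did not reach the minimum in every library of either group. Of the 45 that reached the minimum in both groups, 25 rose and 10 fell, at a median log2 change of 0.33, and 10 were not called. The same restriction over all genes left 36.1% called higher and 37.6% lower. At least 2-fold, 14 of these 45 rose and 4 fell, where 9.41% and 3.61% of all genes so restricted did. Of the 20 receptors among them 14 rose and 3 fell, at a median of 1.00, and of the 25 ligands 11 rose and 7 fell, at a median of 0.15.

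**Figure D1:**
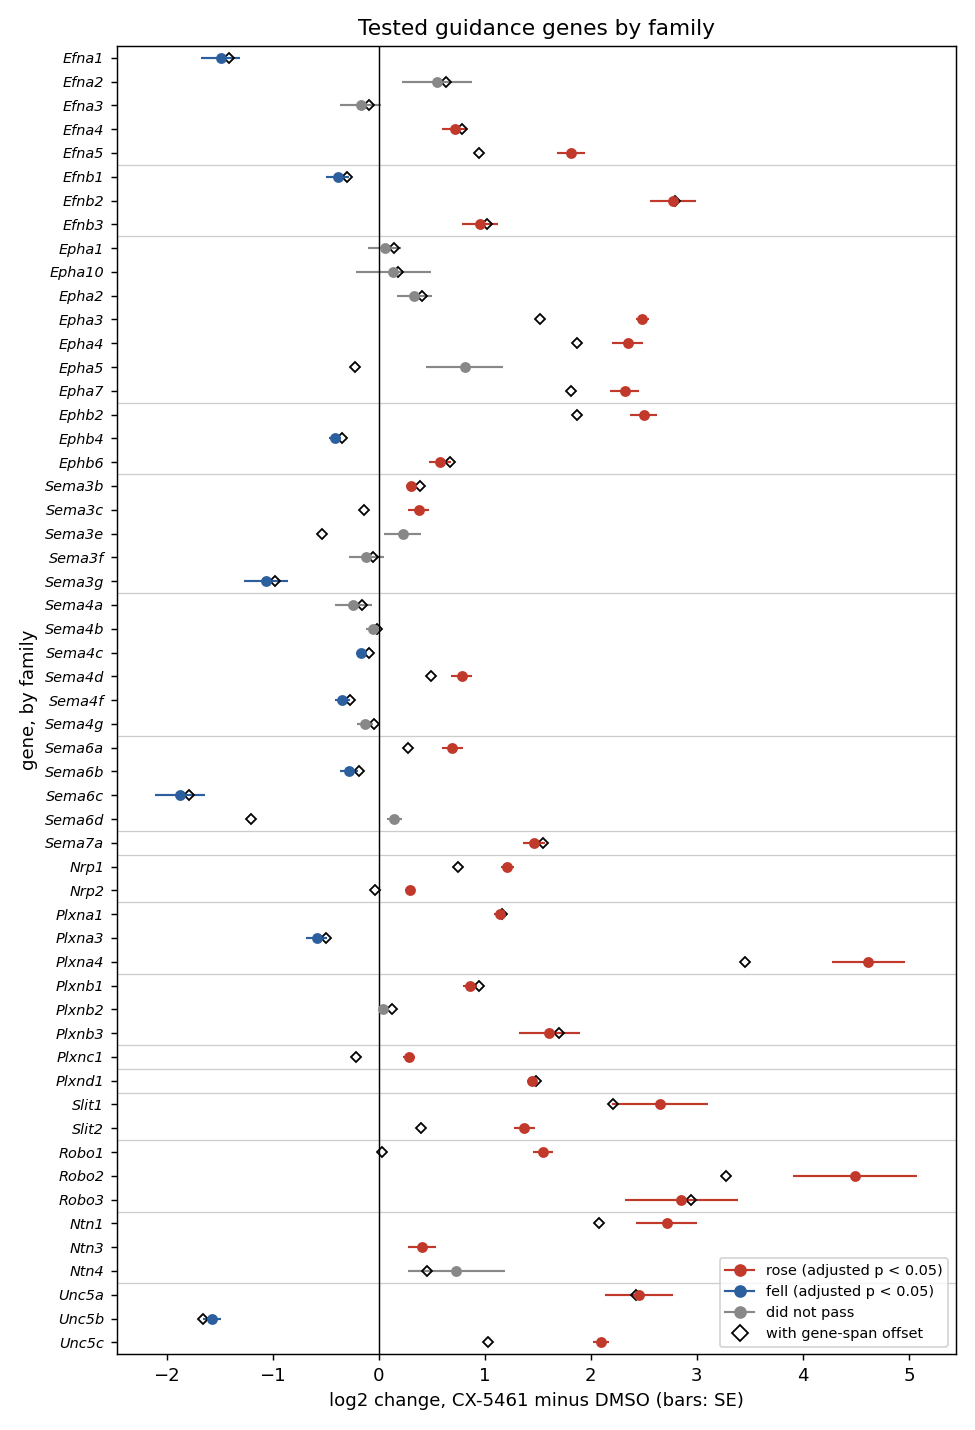
Log2 change, CX-5461 minus DMSO, of the 55 tested guidance genes, grouped by family on the vertical axis. Circles are the fitted changes with their SE, coloured by whether the gene rose, fell or did not pass. Open diamonds are the changes with an offset for the fitted trend on genomic span. Plxna4 and Robo2 lie farthest to the right and Sema6c farthest to the left.

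Many guidance genes are long, and long genes rose as a class in these libraries. The tested guidance genes spanned a median of 39.9 kb of the genome, beside 24.2 kb for all tested genes. Of the 19 spanning under 25 kb, 8 rose and 7 fell, with a median log2 change of 0.06. Of all genes of that class 29.5% were called higher and 41.2% lower, with a median of -0.08. Between 25 and 100 kb 4 of 13 rose and 3 fell, with a median of 0.04. Of all genes of that class 36.5% were higher and 38.8% lower, with a median of -0.02. Between 100 and 200 kb 11 of 12 rose and none fell, with a median of 1.00. Of all genes of that class 59.8% were higher and 16.5% lower, with a median of 0.32. Between 200 and 400 kb 4 of 6 rose, with a median of 1.59 (86% of all genes higher and 3.68% lower, median 0.97). Above 400 kb 3 of 4 rose, with a median of 3.02 (91.9% of all genes higher and 2.68% lower, median 1.71). Of these 4, Plxna4 and Robo2 entered the test through the CX-5461 libraries alone, which favours a call of higher. The others, Robo1 and Sema6d, had log2 changes of 1.55 and 0.15, below the median of all genes of that class. Efna2, Epha10, Ntn1, Robo3, Slit1 and Unc5a, in the classes below 200 kb, entered likewise. The correlations and offset counts that follow include these genes. Across the 54 tested guidance genes with a known span, log2 change and log10 span had a Pearson's r of 0.54 and a Spearman's rank correlation of 0.54, and across 12133 tested genes an r of 0.24 and a rank correlation of 0.22. These are correlations across genes of the same 6 libraries, which are not independent replicates. An offset then took a smooth trend on gene span out of each library. With it 29 guidance genes were higher and 11 lower, with a median of 0.39. Of all tested genes 35.9% were then higher and 37.4% lower. Part of the trend remained at long spans. All tested genes kept medians of 0.14 between 200 and 400 kb and 0.44 above 400 kb. Across the guidance genes r was 0.26 with the offset. Receptors spanned a median of 62.8 kb and ligands 26.6 kb. With the offset 17 receptors were higher and 4 lower, at a median of 0.85. For ligands these counts were 12 and 7, at a median of -0.02. Values with this offset are given below wherever it moved a log2 change or a fold of a called gene by more than 1.5 times or ended or turned a call.

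**Figure D2:**
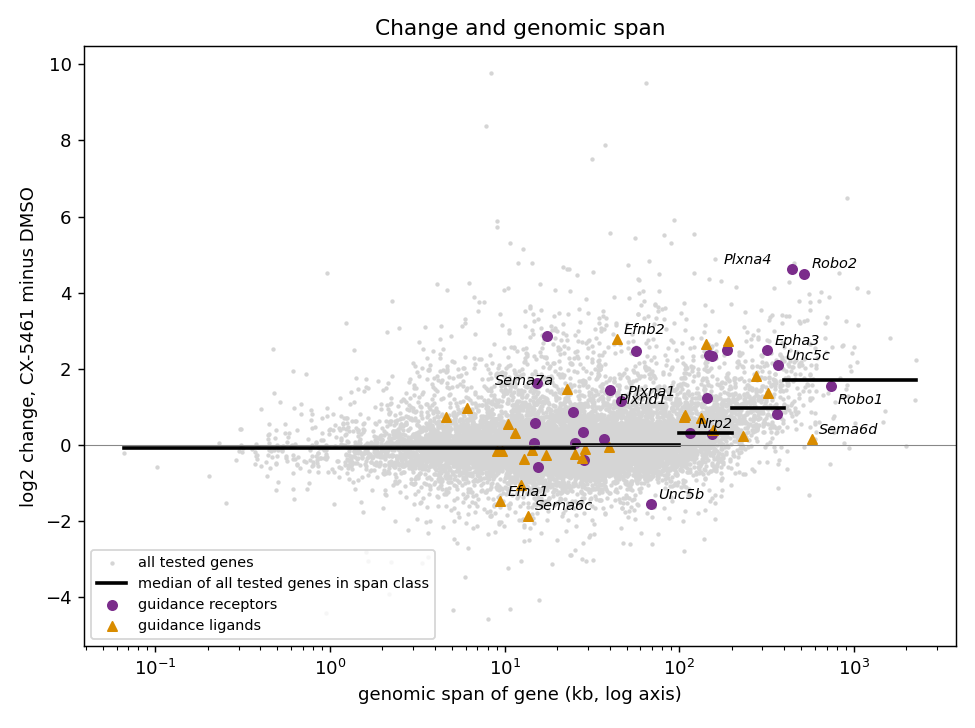
Log2 change, CX-5461 minus DMSO, against the genomic span of each gene in kb on a log axis. Grey dots are all tested genes with a known span, black lines their medians in 5 span classes, circles the tested guidance receptors and triangles the tested guidance ligands. The class medians climb to 1.71 above 400 kb, and Sema6d lies far below that line while Plxna4 and Robo2 lie above it. Plxna4 and Robo2 entered the test through the CX-5461 libraries alone.

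Ephrins of the A class are tethered to the membrane by a lipid anchor, and those of the B class cross it. Of the 8 tested ephrin genes 4 rose, 2 fell and 2 did not pass, beside 37.2% higher and 36.5% lower of all tested genes. Efna4, the ephrin gene with the highest level per exonic length, had 12.3, 15.6 and 14.5 CPM in the CX-5461 libraries, against 8.74, 9.41 and 7.48 CPM in the DMSO libraries. All CX-5461 libraries lay above all DMSO libraries, and the gene rose 1.64-fold (log2 change 0.71 ± 0.12, SE, adjusted p = 5.12e-05). Efna5, which guides retinal axons, had 8.87, 8.51 and 8.84 CPM in the CX-5461 libraries, against 2.40, 2.36 and 2.68 CPM in the DMSO libraries. It rose 3.53-fold (log2 change 1.82 ± 0.13, SE, adjusted p = 6.41e-09), or 1.92-fold with the gene-span offset, without overlap of the groups. Efna1, an ephrin known to be induced by inflammatory cytokines, moved the other way and had 1.35, 1.73 and 1.72 CPM with CX-5461 and 4.92, 3.96 and 4.58 CPM with DMSO. Every CX-5461 library was below every DMSO library, and Efna1 fell 2.81-fold (log2 change -1.49 ± 0.18, SE, adjusted p = 2.28e-06). Efna2 and Efna3 overlapped between the groups, at 0.895 ± 0.239 CPM with CX-5461 and 0.590 ± 0.139 CPM with DMSO for Efna2 (SD, n = 3 per group, adjusted p = 0.142) and 2.62 ± 0.385 CPM with CX-5461 and 2.92 ± 0.597 CPM with DMSO for Efna3 (adjusted p = 0.442).

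Efnb2, the ephrin of arterial endothelium and a partner of Ephb4, changed most among the ephrins. Efnb2 (chromosome 8, 8617434 to 8661242, GRCm38) had 4.77, 5.23 and 6.72 CPM in the CX-5461 libraries, against 0.765, 0.917 and 0.726 CPM in the DMSO libraries. The groups were far apart, with a rise of 6.85-fold (log2 change 2.78 ± 0.22, SE, adjusted p = 1.51e-08) that the gene-span offset left at 6.96-fold. Efnb3, known for holding back corticospinal axons at the midline, had 4.64, 5.18 and 6.52 CPM with CX-5461 and 2.62, 3.18 and 2.57 CPM with DMSO, which again did not overlap, and rose 1.93-fold (log2 change 0.95 ± 0.17, SE, adjusted p = 0.00012). Efnb1, whose loss causes craniofrontonasal syndrome in humans, had 7.29, 6.84 and 8.29 CPM with CX-5461 and 9.23, 9.94 and 10.2 CPM with DMSO. It was lower in each CX-5461 library and fell 1.31-fold (log2 change -0.39 ± 0.11, SE, adjusted p = 0.00522). Summed per exonic length the ephrin genes stood at 18.1 ± 1.66 CPM per kb with CX-5461 and 13.7 ± 0.769 CPM per kb with DMSO. Within that sum Efna5 took 12.1 ± 1.35% with CX-5461 and 4.51 ± 0.580% with DMSO, whereas Efna1 took 4.82 ± 0.218% with CX-5461 and 17.9 ± 2.43% with DMSO.

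Among the Eph receptors Epha3, Epha4, Epha7 and Ephb2 rose by 2.32 to 2.50 on the log2 scale, while Ephb4, the gene with the highest level per exonic length, fell. Of 10 tested, 5 rose, 1 fell and 4 did not pass, where 37.2% of all tested genes were called higher and 36.5% lower. Epha3 (chromosome 16, 63543534 to 63864175), a receptor for A-class ephrins found mutated in several human cancers, had 99.3, 90.6 and 95.5 CPM in the CX-5461 libraries, against 15.8, 17.61 and 17.4 CPM in the DMSO libraries. This was the largest absolute shift among the Eph genes, at 5.61-fold (log2 change 2.49 ± 0.06, SE, adjusted p = 4.96e-14), or 2.86-fold with the gene-span offset. Epha4, which binds ephrins of both classes, had 15.2, 11.8 and 12.1 CPM with CX-5461 and 2.89, 2.41 and 2.40 CPM with DMSO. Its groups were well apart and it rose 5.09-fold (log2 change 2.35 ± 0.15, SE, adjusted p = 1.06e-09). Epha7, a receptor for A-class ephrins in the developing cortex, had 17.5, 15.99 and 15.6 CPM with CX-5461 and 3.55, 3.76 and 2.46 CPM with DMSO. It rose 4.99-fold (log2 change 2.32 ± 0.13, SE, adjusted p = 4.39e-10), and the DMSO library with the lowest level was replicate 3. Ephb2, a receptor for B-class ephrins that guards cell positions in the gut crypt, had 14.9, 13.6 and 16.3 CPM with CX-5461 and 2.46, 2.61 and 2.85 CPM with DMSO. All 3 CX-5461 libraries exceeded all DMSO libraries, and it rose 5.66-fold (log2 change 2.50 ± 0.13, SE, adjusted p = 9.91e-11), or 3.65-fold with the gene-span offset.

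Ephb4, the venous receptor for ephrin-B2, led the Eph genes per exonic length with either treatment, although in CPM Epha3 was above it with CX-5461. It had 53.7, 59.8 and 58.8 CPM in the CX-5461 libraries, against 80.0, 74.4 and 75.4 CPM in the DMSO libraries. The groups did not overlap, and Ephb4 fell 1.33-fold (log2 change -0.42 ± 0.06, SE, adjusted p = 7.14e-06). A stretch of 33 bases of its exons overlaps exons of Zan on the other strand, and whether strand was used in counting is not given in the sources used here. The log2 ratio of Efnb2 to Ephb4 counts was -3.49, -3.51 and -3.13 in the CX-5461 libraries, against -6.71, -6.34 and -6.70 in the DMSO libraries. Ephb6, an Eph receptor that lacks kinase activity, had 12.02, 10.98 and 11.4 CPM with CX-5461 and 7.81, 7.14 and 8.15 CPM with DMSO. It was higher in each CX-5461 library and rose 1.496-fold (log2 change 0.58 ± 0.10, SE, adjusted p = 0.000109).

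The other Eph genes stayed low. Epha1 was at 3.31 ± 0.137 CPM with CX-5461 and 3.18 ± 0.136 CPM with DMSO (adjusted p = 0.755), and 156 bases of one of its exons overlap Zyx on the other strand. Epha2, a receptor often raised in human melanoma, was at 4.36 ± 0.733 CPM with CX-5461 and 3.45 ± 0.354 CPM with DMSO without overlap of the groups, yet missed the threshold (log2 change 0.33 ± 0.16, SE, adjusted p = 0.0767). It passed with the gene-span offset, at 0.41 (adjusted p = 0.035), and without CX-5461 replicate 2, at 0.39 (adjusted p = 0.0484; over all alternatives adjusted p was 0.035 to 0.352). Epha5 was at 0.789 ± 0.244 CPM with CX-5461 and 0.450 ± 0.123 CPM with DMSO (log2 change 0.81 ± 0.36, SE, adjusted p = 0.0549). Its sign was negative once gene span was offset, at -0.23 (adjusted p = 0.586). Leaving out CX-5461 replicate 2 gave a called rise of 1.01 (adjusted p = 0.0219), and leaving out DMSO replicate 2 one of 1.04 (adjusted p = 0.0485). With a GC offset Epha5 was also called higher, at 0.99 (adjusted p = 0.0232), as it was with that offset and a replicate block, at 0.96 (adjusted p = 0.0237). Its adjusted p was 0.0219 to 0.59 over all alternatives. Epha10, like Ephb6 without kinase activity, was at 0.766 ± 0.117 CPM with CX-5461 and 0.701 ± 0.324 CPM with DMSO (adjusted p = 0.733), with the opposite sign without DMSO replicate 3, at -0.13. Ephb3, Epha6 and Epha8 had too few counts to be tested, with at most 0.765 CPM in any library, and Ephb1 had no count in any library, where 3 counts, the limit that a count of 0 allows, equal 0.135 to 0.173 CPM.

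The make-up of the family shifted with these changes. Summed per exonic length, the EphA genes stood at 16.2 ± 0.769 CPM per kb with CX-5461 and 4.27 ± 0.181 CPM per kb with DMSO, and the EphB genes at 16.7 ± 0.545 CPM per kb with CX-5461 and 18.8 ± 0.687 CPM per kb with DMSO. Ephb4 took 37.7 ± 2.39% with CX-5461 and 71.5 ± 0.552% with DMSO of the level of all Eph genes, and Epha3 took 33.3 ± 1.22% with CX-5461 and 8.47 ± 0.737% with DMSO (SD, n = 3 per group). The order of the top genes with CX-5461 was Ephb4, Epha3 and Ephb6, at 12.4 ± 0.701 CPM per kb with CX-5461 and 16.5 ± 0.645 CPM per kb with DMSO for Ephb4, 10.9 ± 0.498 CPM per kb with CX-5461 and 1.95 ± 0.112 CPM per kb with DMSO for Epha3 and 3.04 ± 0.138 CPM per kb with CX-5461 and 2.04 ± 0.136 CPM per kb with DMSO for Ephb6. With DMSO the values of Epha3 and Ephb6 lay within their spread of each other, which was not so with CX-5461.

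The start regions of Efnb2 and Ephb4, a ligand and its receptor that moved in opposite directions, are shown as RefSeq gives them in GRCm38.p6, 250 bases before to 50 bases after the annotated start on the strand of the gene. Capitals mark runs that could fold as a G-quadruplex, the DNA form that CX-5461 binds, searched on both strands as 4 runs of GGG separated by 1 to 7 bases, with overlapping matches joined. Efnb2 lies on the minus strand (chr8:8661193-8661492) and Ephb4 on the plus strand (chr5:137349859-137350158).
Efnb2: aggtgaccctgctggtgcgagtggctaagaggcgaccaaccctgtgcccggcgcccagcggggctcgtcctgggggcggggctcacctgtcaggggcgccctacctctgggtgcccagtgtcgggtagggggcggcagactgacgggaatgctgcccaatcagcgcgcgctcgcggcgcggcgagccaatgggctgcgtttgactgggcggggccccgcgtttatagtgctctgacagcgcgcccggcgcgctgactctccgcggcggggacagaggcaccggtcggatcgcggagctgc
Ephb4: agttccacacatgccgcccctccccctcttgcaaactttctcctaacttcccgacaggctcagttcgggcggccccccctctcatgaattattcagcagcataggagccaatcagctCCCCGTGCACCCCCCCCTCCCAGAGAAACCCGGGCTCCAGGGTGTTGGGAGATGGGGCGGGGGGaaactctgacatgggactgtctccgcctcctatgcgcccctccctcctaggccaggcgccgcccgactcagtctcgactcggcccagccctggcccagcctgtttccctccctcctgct
The window of Ephb4, which fell, held this pattern and that of Efnb2, which rose, did not. The pattern stood in 18.52% of all 32851 promoter windows and in 28.16% of 11733 windows of tested genes. A match is a description of the letters and not a measured structure.

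Semaphorins went both ways, with Sema7a up most and Sema6c down most among those tested. Class 3 semaphorins are secreted, classes 4 to 6 cross the membrane and Sema7a is held by a lipid anchor. Of 16 tested genes 5 rose and 5 fell, at a median log2 change of -0.09, and 6 were not called. The shares of all tested genes called higher and lower were 37.2% and 36.5%. Sema3b, a secreted repellent described as a tumour suppressor and p53 target in humans, had 437, 431 and 457 CPM in the CX-5461 libraries, against 369.6, 363 and 341 CPM in the DMSO libraries. Its level per exonic length was the highest of the semaphorins with either treatment, at 92.4 ± 2.80 CPM per kb with CX-5461 and 74.9 ± 3.13 CPM per kb with DMSO. The groups were apart and Sema3b rose 1.23-fold (log2 change 0.30 ± 0.05, SE, adjusted p = 1.91e-05). Sema3g, a ligand that signals through neuropilin-2, had 1.67, 1.90 and 3.13 CPM with CX-5461 and 4.15, 5.07 and 4.74 CPM with DMSO. It fell 2.09-fold (log2 change -1.07 ± 0.21, SE, adjusted p = 0.000246), with CX-5461 replicate 3 nearest to the DMSO libraries. Sema3c, which guides neural crest cells to the heart, was at 9.51 ± 0.247 CPM with CX-5461 and 7.34 ± 0.275 CPM with DMSO and rose 1.30-fold (log2 change 0.37 ± 0.10, SE, adjusted p = 0.00414). Once gene span was offset Sema3c had a negative sign and was not called, at -0.14 (adjusted p = 0.253). Sema3e, the ligand that binds plexin-D1 without a neuropilin, was at 2.92 ± 0.390 CPM with CX-5461 and 2.52 ± 0.136 CPM with DMSO (adjusted p = 0.255), but passed as lower with the offset, at -0.54 (adjusted p = 0.0107, and 0.0107 to 0.487 over all alternatives). Sema3f, the main ligand of neuropilin-2, was at 3.00 ± 0.174 CPM with CX-5461 and 3.25 ± 0.412 CPM with DMSO and overlapped (adjusted p = 0.523).

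Sema3a and Sema3d had too few counts to be tested. Sema3a, the founding repellent of the class, had 0.180, 0.345 and 0.0505 CPM with CX-5461 and no count with DMSO. Sema3d had 40 counts over the CX-5461 libraries and 3 over the DMSO libraries, a ratio of 12.8 after scaling (exact 95% interval 4.07 to 64.6, which covers counting error only).

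In class 4, Sema4d, the ligand of plexin-B1 also called CD100, had 16.4, 19.2 and 19.9 CPM with CX-5461 and 10.98, 11.001 and 10.2 CPM with DMSO. The groups did not overlap and Sema4d rose 1.72-fold (log2 change 0.78 ± 0.10, SE, adjusted p = 2.77e-06), or 1.41-fold with the gene-span offset (log2 change 0.49). Sema4c, a ligand of plexin-B2 and the most abundant of the class per exonic length, had 106, 107 and 106 CPM in the CX-5461 libraries, against 120.1, 124 and 116 CPM in the DMSO libraries. This small fall of 1.13-fold (log2 change -0.17 ± 0.05, SE, adjusted p = 0.00332) did not pass with the gene-span offset (adjusted p = 0.0689). Sema4f was at 21.1 ± 1.05 CPM with CX-5461 and 26.8 ± 0.712 CPM with DMSO and fell 1.27-fold (log2 change -0.34 ± 0.07, SE, adjusted p = 0.000473). Sema4a, Sema4b and Sema4g did not pass, with log2 changes of -0.24 ± 0.17, -0.06 ± 0.07 and -0.13 ± 0.07 (SE, adjusted p = 0.22, 0.47 and 0.114). Sema4g passed as lower without DMSO replicate 3, at -0.21 (adjusted p = 0.0112), with library totals only and with a GC offset, and its adjusted p was 0.0112 to 0.613 over all alternatives.

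Class 6 went both ways. Sema6a, a ligand of plexin-A2 and plexin-A4, had 16.5, 14.9 and 17.4 CPM with CX-5461 and 10.4, 10.2 and 9.55 CPM with DMSO, and rose 1.62-fold (log2 change 0.70 ± 0.09, SE, adjusted p = 7.81e-06). With the gene-span offset the rise of Sema6a was 1.21-fold (log2 change 0.28, adjusted p = 0.011). Sema6b, the class member with the highest level per exonic length, had 22.5, 20.5 and 23.1 CPM in the CX-5461 libraries, against 26.5, 29.5 and 24.1 CPM in the DMSO libraries. It fell 1.21-fold (log2 change -0.28 ± 0.08, SE, adjusted p = 0.00781), a call that ended with the gene-span offset (adjusted p = 0.0526) and without DMSO replicate 2 (adjusted p = 0.0687, and 0.00126 to 0.0687 over all alternatives). Sema6c had 0.765, 0.633 and 0.556 CPM with CX-5461 and 2.24, 2.65 and 2.34 CPM with DMSO. Its CX-5461 libraries were all below 1 CPM and it fell 3.66-fold (log2 change -1.87 ± 0.24, SE, adjusted p = 3.75e-06), the steepest fall of any tested guidance gene. Sema6d, a ligand of plexin-A1, spans 577.8 kb and was at 57.0 ± 5.71 CPM with CX-5461 and 51.6 ± 1.67 CPM with DMSO. The groups overlapped (log2 change 0.15 ± 0.07, SE, adjusted p = 0.0616), while all tested genes above 400 kb had a median log2 change of 1.71. Sema6d was called lower with the gene-span offset, at -1.21 (adjusted p = 7.45e-12), and higher without CX-5461 replicate 2, at 0.22 (adjusted p = 0.000708). Over all alternatives its adjusted p was 2.95e-14 to 0.336. The class 5 genes Sema5a and Sema5b, Sema5b being the higher per exonic length, had no count with DMSO. Sema5b had 0, 0.173 and 0.0505 CPM with CX-5461 and Sema5a at most 0.101 CPM, which was at the level of 3 counts or below.

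Sema7a, the ligand of plexin-C1, had 20.4, 20.8 and 17.3 CPM in the CX-5461 libraries, against 7.26, 6.90 and 6.98 CPM in the DMSO libraries. Every CX-5461 library lay far above every DMSO library, and Sema7a rose 2.76-fold (log2 change 1.47 ± 0.10, SE, adjusted p = 3.87e-09). It spans only 22.8 kb, and the gene-span offset left its rise at 2.93-fold. Its start region on the plus strand of chromosome 9 (chr9:57939862-57940161, RefSeq, GRCm38.p6) is shown because Sema7a rose most among the tested semaphorins, with the G-run pattern in capitals as above.
Sema7a: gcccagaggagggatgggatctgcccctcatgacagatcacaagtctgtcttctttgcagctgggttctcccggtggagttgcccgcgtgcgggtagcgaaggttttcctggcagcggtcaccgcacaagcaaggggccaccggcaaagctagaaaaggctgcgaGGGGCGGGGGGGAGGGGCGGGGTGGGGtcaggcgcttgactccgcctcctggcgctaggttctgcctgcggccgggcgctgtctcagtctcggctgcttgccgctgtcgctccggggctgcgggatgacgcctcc
This window held 1 unbroken stretch of G runs. Such a pattern stood in 8 of 21 windows of guidance genes that rose, in 3 of 10 of those that fell and in 6 of 13 of those not called, beside 28.16% of the windows of all tested genes, and these shares were not compared by a test.

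Neuropilins bind secreted semaphorins and VEGF. Nrp1, the co-receptor of Sema3a, had 59.5, 54.9 and 56.0 CPM in the CX-5461 libraries, against 25.1, 22.87 and 25.6 CPM in the DMSO libraries. The groups were well apart and Nrp1 rose 2.32-fold (log2 change 1.21 ± 0.06, SE, adjusted p = 1.77e-10), or 1.68-fold with the gene-span offset. Nrp2, the co-receptor of Sema3f and the more abundant of the pair per exonic length, had 259, 227 and 242 CPM in the CX-5461 libraries, against 196, 196 and 202 CPM in the DMSO libraries. It rose 1.23-fold (log2 change 0.29 ± 0.05, SE, adjusted p = 7.67e-05) without overlap, but the call ended and the sign turned with the gene-span offset, at -0.03 (adjusted p = 0.497). The log2 ratio of Nrp1 to Nrp2 counts was -2.12, -2.05 and -2.11 in the CX-5461 libraries, against -2.96, -3.10 and -2.98 in the DMSO libraries, and these ranges did not overlap.

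Plexins were the most highly expressed of these families. Summed per exonic length they stood at 309 ± 18.4 CPM per kb with CX-5461 and 187 ± 3.01 CPM per kb with DMSO. Of 8 tested genes 6 rose, 1 fell and 1 did not pass, beside 37.2% higher and 36.5% lower of all tested genes. Plxna1 (chromosome 6, 89316314 to 89362620), which pairs with neuropilins and binds Sema6d, had 1119.5, 953 and 1125 CPM in the CX-5461 libraries, against 486, 473 and 489 CPM in the DMSO libraries. The CX-5461 libraries were all far above, with replicate 2 the lowest of them, and Plxna1 rose 2.21-fold (log2 change 1.14 ± 0.06, SE, adjusted p = 9.02e-11). Plxnd1, the receptor of Sema3e, had 501, 478 and 504 CPM in the CX-5461 libraries, against 177, 181 and 186 CPM in the DMSO libraries. The groups were far apart with a narrow spread. Plxnd1 rose 2.73-fold (log2 change 1.45 ± 0.04, SE, adjusted p = 2.81e-13) and spans only 40.2 kb. Plxnb1, the receptor of Sema4d, had 196, 159.7 and 182 CPM with CX-5461 and 99.6, 101 and 96.2 CPM with DMSO. Plxnb1 rose 1.82-fold (log2 change 0.86 ± 0.06, SE, adjusted p = 7.94e-09), again with replicate 2 lowest among the CX-5461 libraries.

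Plxnb2, a receptor of Sema4c and the most abundant plexin per exonic length with DMSO, had 668, 620.4 and 679 CPM in the CX-5461 libraries, against 638, 625 and 645 CPM in the DMSO libraries. The groups overlapped and it did not pass (log2 change 0.04 ± 0.04, SE, adjusted p = 0.385). It was called higher with the gene-span offset, at 0.12 (adjusted p = 0.0167), and without CX-5461 replicate 2, at 0.08 (adjusted p = 0.0448), and its sign turned with library totals only (-0.030) and with a GC offset (-0.0036). Its adjusted p was 0.0167 to 0.946 over all alternatives. Within the plexin sum Plxnb2 took 27.5 ± 0.470% with CX-5461 and 44.0 ± 0.0847% with DMSO, Plxna1 38.1 ± 1.29% with CX-5461 and 28.5 ± 0.169% with DMSO and Plxnd1 22.0 ± 0.695% with CX-5461 and 13.3 ± 0.275% with DMSO (SD, n = 3 per group). Plxna1 was thus ahead of Plxnb2 with CX-5461 and behind it with DMSO.

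Plxnc1, the receptor of Sema7a, which has been reported to act as a tumour suppressor in human melanoma, had 158, 153 and 137 CPM in the CX-5461 libraries, against 122, 116 and 129 CPM in the DMSO libraries. It rose 1.22-fold (log2 change 0.29 ± 0.06, SE, adjusted p = 0.000386), but with the gene-span offset it was called lower, at -0.22 (adjusted p = 0.00363). The log2 ratio of Sema7a to Plxnc1 counts was -2.95, -2.88 and -2.99 in the CX-5461 libraries, against -4.07, -4.08 and -4.21 in the DMSO libraries, without overlap. Plxna3, which pairs with neuropilin-2 for Sema3f, had 8.33, 7.88 and 7.93 CPM with CX-5461 and 12.5, 11.4 and 12.5 CPM with DMSO and fell 1.501-fold (log2 change -0.59 ± 0.10, SE, adjusted p = 6.91e-05). Plxnb3, the receptor of Sema5a, had 2.43, 1.96 and 3.64 CPM with CX-5461 and 0.929, 1.11 and 0.558 CPM with DMSO and rose 3.05-fold (log2 change 1.61 ± 0.29, SE, adjusted p = 0.000131). Plxna4 (chromosome 6, 32144268 to 32588192), the plexin of sensory and sympathetic axons, had 4.55, 2.93 and 4.50 CPM in the CX-5461 libraries, against 0.109, 0.145 and 0.223 CPM in the DMSO libraries. Its DMSO values were 2 to 4 counts a library, and the rise of 24.6-fold (log2 change 4.62 ± 0.34, SE, adjusted p = 8.3e-09) was 10.98-fold with the gene-span offset. Plxna4 entered the test through the CX-5461 libraries alone. Plxna2 had 9 counts over the CX-5461 libraries and 2 over the DMSO libraries and was not tested.

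**Figure D3:**
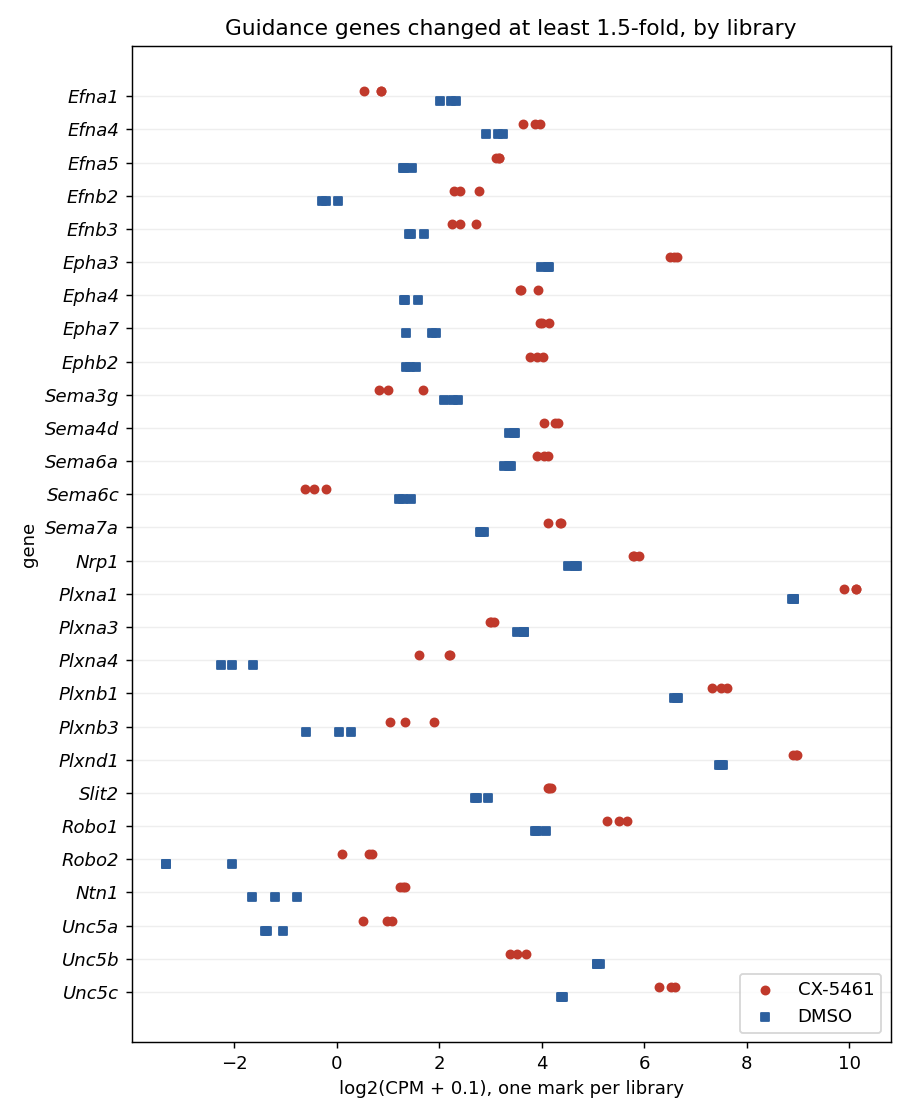
Level of each guidance gene with a called change of at least 1.5-fold and at least 1 CPM, as log2(CPM + 0.1) on the horizontal axis with one mark per library, CX-5461 circles above DMSO squares. The groups lie apart for each gene shown, which follows in part from choosing genes by their called change. Robo2 and Plxna4 sit near the left edge with DMSO.

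All 5 tested Slit and Robo genes rose, though Slit1, Robo2 and Robo3 entered the test through the CX-5461 libraries alone and the call of Robo1 ended with the gene-span offset. Of all tested genes 37.2% were called higher, but 86% of those spanning 200 to 400 kb and 91.9% of those above 400 kb. Slit2 spans 324.6 kb and Robo2 520 kb, and Robo1 too lies above 400 kb. Slit2, a secreted repellent, had 18.2, 17.7 and 17.3 CPM in the CX-5461 libraries, against 6.61, 6.37 and 7.65 CPM in the DMSO libraries. The groups did not overlap and Slit2 rose 2.59-fold (log2 change 1.37 ± 0.10, SE, adjusted p = 5.72e-09), or 1.31-fold with the gene-span offset. Slit1 was at 0.802 ± 0.0965 CPM with CX-5461 and 0.121 ± 0.0577 CPM with DMSO, few counts a library, and rose by 2.65 ± 0.45 on the log2 scale (SE, adjusted p = 7.38e-05). Slit3 had no count in any library. Robo1 (chromosome 16, 72308306 to 73046095), the Slit receptor gene with the highest level per exonic length, had 45.8, 38.6 and 50.9 CPM in the CX-5461 libraries, against 16.9, 14.9 and 14.6 CPM in the DMSO libraries. It rose 2.93-fold (log2 change 1.55 ± 0.10, SE, adjusted p = 1.21e-09), with replicate 2 lowest among the CX-5461 libraries. Robo1 spans 737.8 kb, and with the gene-span offset its call ended, at a log2 change of 0.03 (adjusted p = 0.742). The log2 ratio of Slit2 to Robo1 counts was -1.33, -1.12 and -1.56 in the CX-5461 libraries, against -1.35, -1.22 and -0.94 in the DMSO libraries, and these ranges overlapped.

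Robo2, the closest relative of Robo1, had 1.44, 0.978 and 1.52 CPM in the CX-5461 libraries, against 0, 0.145 and 0 CPM in the DMSO libraries. It was called higher (log2 change 4.50 ± 0.58, SE, adjusted p = 4.73e-06), a fitted value that depends on the prior count. All 3 of its DMSO counts were in replicate 2, and without that library the fitted value was 7.67, where leaving out any other library gave 3.98 to 4.65. Over the libraries it had 79 counts with CX-5461 and 3 with DMSO, a scaled ratio of 25.3 (exact 95% interval 8.33 to 125.1, counting error only). With the gene-span offset the fitted log2 change was 3.28. Robo3, the divergent Robo of axons that cross the midline, was at 0.946 ± 0.277 CPM with CX-5461 and 0.119 ± 0.104 CPM with DMSO, few counts a library, and rose 7.23-fold (log2 change 2.85 ± 0.53, SE, adjusted p = 0.000172). It spans only 17.58 kb. Robo4, the endothelial Robo, had at most 0.135 CPM in any library and was not tested.

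Netrins were low and Unc5 receptors changed in opposite directions. Ntn1, the founding netrin, had 2.34, 2.42 and 2.27 CPM in the CX-5461 libraries, against 0.218, 0.483 and 0.335 CPM in the DMSO libraries. All CX-5461 libraries were above 2 CPM and all DMSO libraries below 1 CPM, and Ntn1 rose 6.57-fold (log2 change 2.72 ± 0.29, SE, adjusted p = 4.43e-07), or 4.23-fold with the gene-span offset. Ntn1 entered the test through the CX-5461 libraries alone. Ntn3 was at 7.80 ± 0.709 CPM with CX-5461 and 5.92 ± 0.747 CPM with DMSO and rose 1.33-fold (log2 change 0.41 ± 0.13, SE, adjusted p = 0.0102), a call that ended without DMSO replicate 2 (log2 change 0.30, adjusted p = 0.0756, and 0.00428 to 0.0756 over all alternatives). Its identifier had no match in the annotation, so its span is not given and the gene-span offset left it untouched. Ntn4, a netrin of basement membranes, was at 0.696 ± 0.330 CPM with CX-5461 and 0.411 ± 0.181 CPM with DMSO with overlapping groups (log2 change 0.73 ± 0.46, SE, adjusted p = 0.161, or 0.45 with the gene-span offset). Without CX-5461 replicate 1, its lowest CX-5461 library, Ntn4 passed at 1.12 (adjusted p = 0.0241, and 0.0241 to 0.457 over all alternatives). Ntn5 had 1 count in all.

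Unc5b and Unc5c traded places as the leading Unc5 gene. Unc5c (chromosome 3, 141465216 to 141834924), a repulsive netrin receptor, had 97.3, 78.6 and 92.6 CPM in the CX-5461 libraries, against 20.9, 20.7 and 21.3 CPM in the DMSO libraries. It rose 4.27-fold (log2 change 2.10 ± 0.08, SE, adjusted p = 2.39e-12), or 2.05-fold with the gene-span offset, and replicate 2 was again lowest among the CX-5461 libraries. Unc5b (chromosome 10, 60762593 to 60831581), the vascular netrin receptor, known in humans as a gene induced by p53, had 10.3, 11.4 and 12.9 CPM in the CX-5461 libraries, against 33.9, 33.8 and 34.9 CPM in the DMSO libraries. Every CX-5461 library was far below every DMSO library, and Unc5b fell 2.97-fold (log2 change -1.57 ± 0.08, SE, adjusted p = 1.95e-10), the steepest fall of any tested guidance receptor. The log2 ratio of Unc5c to Unc5b counts was 3.24, 2.78 and 2.85 in the CX-5461 libraries, against -0.70, -0.71 and -0.72 in the DMSO libraries. Per exonic length Unc5b took 26.7 ± 3.40% with CX-5461 and 82.3 ± 0.263% with DMSO of the Unc5 level and Unc5c 67.3 ± 2.72% with CX-5461 and 16.5 ± 0.0619% with DMSO (SD, n = 3 per group), while the sum of the family differed by less than the SD of the CX-5461 libraries, at 6.94 ± 0.596 CPM per kb with CX-5461 and 6.64 ± 0.107 CPM per kb with DMSO. Without scaling by length the Unc5 genes, of which Unc5c has a greater exonic length than Unc5b, summed to 102.8 ± 9.95 CPM with CX-5461 and 55.5 ± 0.857 CPM with DMSO. Unc5a, an Unc5 receptor of neurons, had 2.03, 1.32 and 1.87 CPM with CX-5461 and 0.382, 0.290 and 0.279 CPM with DMSO, and rose 5.48-fold (log2 change 2.45 ± 0.32, SE, adjusted p = 4.86e-06). Unc5a too entered the test through the CX-5461 libraries alone. Unc5d had 1 count in all.

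The start regions of both genes are printed because they moved in opposite directions. Unc5b lies on the minus strand (chr10:60831532-60831831) and Unc5c on the plus strand (chr3:141465314-141465613, RefSeq, GRCm38.p6). The RefSeq start of Unc5c lies 348 bases from the gene start in the annotation used for spans.
Unc5b: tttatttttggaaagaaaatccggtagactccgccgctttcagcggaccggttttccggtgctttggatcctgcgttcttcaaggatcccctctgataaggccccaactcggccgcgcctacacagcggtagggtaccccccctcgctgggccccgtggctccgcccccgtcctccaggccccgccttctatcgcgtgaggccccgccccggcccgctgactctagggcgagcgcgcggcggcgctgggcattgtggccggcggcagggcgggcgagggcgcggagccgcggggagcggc
Unc5c: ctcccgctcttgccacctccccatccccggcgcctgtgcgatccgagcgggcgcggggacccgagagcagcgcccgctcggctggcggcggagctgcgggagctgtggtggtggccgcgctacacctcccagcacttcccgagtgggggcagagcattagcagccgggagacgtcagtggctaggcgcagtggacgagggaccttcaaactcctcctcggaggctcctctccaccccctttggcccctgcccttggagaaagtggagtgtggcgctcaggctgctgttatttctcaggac
Neither window held the G-run pattern, so both stand in lower case throughout. The GC box GGGCGG, counted on both strands, stood 3 times in the window of Unc5b and not in that of Unc5c. It stood in 63.21% of the windows of all tested genes and in 36 of 44 windows of tested guidance genes.

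**Figure D4:**
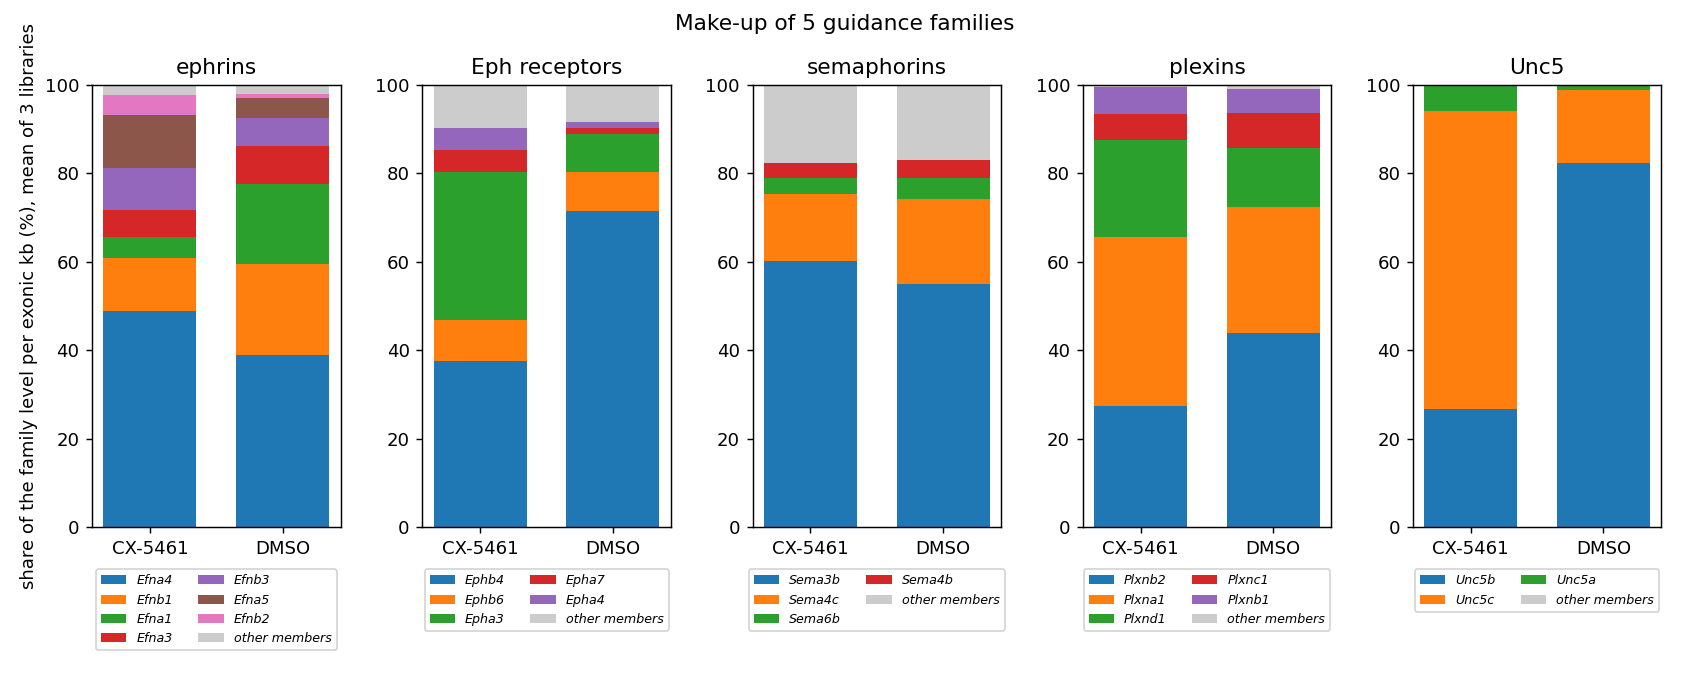
Share of each family's level per exonic kb taken by its members, as the mean of 3 libraries, with CX-5461 left and DMSO right in each panel. Members reaching 4% in either group are drawn, the rest are grey. Ephb4 takes a smaller and Epha3 a larger share with CX-5461 than with DMSO, and the largest Unc5 share is that of Unc5c with CX-5461 and that of Unc5b with DMSO.

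Other genes of guidance signalling, in lists drawn up with earlier results of these data known, were mostly higher as well. Of 26 further guidance ligands, receptors and co-receptors 14 were tested, of which 11 rose and 2 fell, at a median log2 change of 0.38 (37.2% and 36.5% of all tested genes were called higher and lower). With the gene-span offset 9 were higher and 2 lower, at a median of 0.28 (35.9% and 37.4% of all tested genes with that offset). Met, the receptor of hepatocyte growth factor and a partner of plexin-B1, had 340.5, 317 and 269.6 CPM with CX-5461 and 141, 144 and 155 CPM with DMSO, and rose 2.11-fold (log2 change 1.08 ± 0.07, SE, adjusted p = 1.74e-09). The adhesion molecule gene Nrcam, a partner of neuropilin-2, had 331, 317 and 323 CPM with CX-5461 and 159, 150.3 and 168 CPM with DMSO, and rose 2.04-fold (log2 change 1.03 ± 0.05, SE, adjusted p = 3.76e-11), or 1.12-fold with the gene-span offset. Vegfa, a ligand that neuropilins bind, had 143, 149 and 135 CPM with CX-5461 and 335, 335 and 340.4 CPM with DMSO, and fell 2.37-fold (log2 change -1.25 ± 0.05, SE, adjusted p = 2.57e-12). Dcc, the attractive netrin receptor, had too few counts to be tested, at 0.183 ± 0.0689 CPM with CX-5461 and 0.0186 ± 0.0322 CPM with DMSO.

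Of 51 tested rows for intracellular effectors of guidance receptors, 35 rose and 9 fell, at a median of 0.39, beside the same shares of all tested genes. With the gene-span offset 30 were higher and 16 lower, with a median of 0.22, beside 35.9% higher and 37.4% lower of all tested genes. Rnd1, a small GTPase that binds plexins, had 4.28, 4.08 and 5.10 CPM with CX-5461 and 20.9, 19.5 and 21.9 CPM with DMSO, and fell 4.61-fold (log2 change -2.20 ± 0.11, SE, adjusted p = 6.91e-11). Dock1, an activator of Rac downstream of netrin and other receptors, had 52.9, 50.3 and 59.0 CPM with CX-5461 and 13.5, 11.7 and 12.5 CPM with DMSO, and rose 4.31-fold (log2 change 2.11 ± 0.08, SE, adjusted p = 4.08e-12), or 1.80-fold with the gene-span offset. Trio, an exchange factor for Rac downstream of Dcc, had 240.1, 186 and 238 CPM with CX-5461 and 70.6, 60.9 and 60.8 CPM with DMSO, and rose 3.46-fold (log2 change 1.79 ± 0.09, SE, adjusted p = 5.99e-11), or 1.83-fold with that offset.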

How the data were processed

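RNA of 6 B16 samples was measured by sequencing, 3 with CX-5461 and 3 with DMSO, grouped and numbered as their titles say. The deposited table holds whole-number read counts for 22740 protein-coding genes, which the authors had not normalized. Per the submitters' processing notes the builds were GRCm38 and mm10. Aligner, counter and use of strand were not given in the sources used here. The guidance genes, the lists and the alternatives were chosen with earlier results of these data known.

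The filterByExpr rule (edgeR 4.0.16, minimum count 10) left 12198 genes. Counts were scaled by TMM factors, and CX-5461 was tested against DMSO with edgeR's quasi-likelihood test (R 4.3.3), two-sided, with Benjamini-Hochberg adjustment over all tested genes. SE is the log2 change over the square root of F. Spans, exonic lengths and GC content came from GENCODE M21 (GRCm38), which matched 21919 identifiers. Offsets were lowess fits (span 0.5) of each library's log2 CPM deviation on log10 gene span or on GC content. The test was also run on simulated counts with 200 changed genes and a common dispersion, and its outcome is not given here. In these data 73.7% of tested genes were called, so that run does not show how the test fares here. Alternatives also used DESeq2 1.42.0 and limma 3.58.1. Values in every library are given for genes with a called change of at least 1.5-fold and at least 1 CPM and for the most abundant member of each family per exonic length. Of 58 members matched to a RefSeq promoter window, 54 lay within 1000 bases of the annotated gene start and were used. The precision of each value is limited by library totals of 17573990 to 22908309 counts, and intervals cover counting error only. One list of cell type markers is not reported here.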

Additional observations from a re-analysis of the deposited data

How the results depend on the processing

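Over 18 alternative fits at the threshold of 0.05, between 28 and 36 guidance genes were called higher and between 9 and 11 lower. Over all genes these fits called 3989 to 4818 higher and 4084 to 5111 lower. At an adjusted p below 0.01, 30 guidance genes were higher and 10 lower, beside 4008 and 3847 of all tested genes. Of the 41 called guidance genes 31 were called in the same direction in all 18 fits, a count not made over all genes. The other 10 were Sema4c, Nrp2, Plxnc1, Robo1, Sema3c and Sema6b, whose call ended or turned with the gene-span offset, Ntn3, and Robo2, Robo3 and Slit1, which the filter of 1 CPM in 3 libraries left untested. Leaving out 1 library gave 32 to 36 higher and 9 to 11 lower, and 4234 to 4600 genes higher and 4084 to 4608 lower overall. Signs turned with the gene-span offset, alone and with a replicate block, for Nrp2 (-0.033 and -0.034), Plxnc1 (-0.22 and -0.22), Sema6d (-1.21 and -1.21), Sema3e (-0.54 and -0.55), Sema3c (-0.14 and -0.14) and Epha5 (-0.23 and -0.24). They turned with library totals only for Plxnb2 (-0.030) and Epha1 (-0.018), with a GC offset for Plxnb2 (-0.0036, or -0.0047 with a replicate block), and without DMSO replicate 3 for Epha10 (-0.13, where leaving out each library gave -0.13 to 0.50). The cause was not tested. Library totals only gave 3989 genes higher and 5111 lower, with a median of -0.08 over all genes. The replicate block gave 32 guidance genes higher and 10 lower, Sema6d being the added call, and 4537 and 4464 genes overall. Same-numbered samples shared little beyond the number, with correlations of deviations from the group means of 0.036, 0.004 and -0.008, and not every sample correlated best with its own number. Depth set the lower limit: genes below 0.526 CPM in more than 3 of the 6 libraries were not tested. Fits that let in more genes called Sema3d (no filter, and without CX-5461 replicate 2 or any 1 DMSO replicate), Sema3a (no filter) and Ephb3 (without CX-5461 replicate 3 or DMSO replicate 3) higher.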

Other observations

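Promoter windows of the guidance genes were also searched for the E-box letters CACGTG and CATGTG, which the melanocyte factor Mitf is known to bind. CACGTG stood in 2 of 44 windows of tested guidance genes, those of Sema3e and Sema6d, and in 10.03% of the windows of all tested genes. CATGTG stood in 3 of 44, those of Ephb4, Nrp2 and Sema3e, and in 8.21% of the windows of all tested genes. None of the 21 windows of genes that rose and none of the 10 of genes that fell held CACGTG. Both matches were thus in genes not called. Of the 31 genes that rose, only these 21 had a window that was used. No match says only that these letters are not in a window of 300 bases.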
